A study of Mus musculus with 26 samples.

Results

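Potassium channel genes were followed in the choroid plexus (ChP) of the mouse, the epithelial tissue in the brain ventricles that secretes cerebrospinal fluid. Members were all genes whose symbol begins with Kcn and whose mean level reached 1 CPM (estimated counts per 1000000 counts of the library) both in sham-operated mice (Ctrl) and in mice whose suprachiasmatic nucleus (SCN), the central circadian clock of the hypothalamus, had been lesioned (SCNx). Of 55416 listed genes, 99 carried such a symbol, and 36 of these passed. Of the other 63, 50 were under the limit in both groups, 12 reached it in SCNx only and 1 in Ctrl only. The same limit left 13697 genes of any name, over which all tests were adjusted. Just inside the limit lay Kcnd2 with means of 1.03 CPM in Ctrl and 2.17 CPM in SCNx, and just outside it lay Kcnk9 with 0.938 and 4.50 CPM.

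Ctrl and SCNx each held 12 adult male C57Bl6J mice, 1 killed every 4 h from circadian time (CT) 0 to CT44 in constant darkness, and RNA came from ChP of the 4th ventricle that was dissected with pincers. The lesion was electrolytic. The KO group held 2 adult male mice that carried FoxJ1-ERT2-Cre+/- and Bmal1fl/fl, came from parent lines kept on the same strain background as Ctrl, and ate a tamoxifen diet under a cycle of light and darkness, 1 sampled at zeitgeber time (ZT) 7 and 1 at ZT18. In them the Cre recombinase is driven by Foxj1, a gene of cells with motile cilia, so Bmal1 (listed as Arntl), a core clock gene, was to be lost in those cells alone. KO tissue was frozen, cut out by laser and sequenced with a low-input total RNA kit, where Ctrl and SCNx had an mRNA kit. Its RNA was also less intact by the study's measure. Every difference between KO and Ctrl thus also carries the kit, the dissection, the RNA integrity and the sham surgery of Ctrl. It carries the light schedule, the tamoxifen diet, the site and the age as well. None of these can be told apart from the genotype. By the methods of the study the KO mice were older than the Ctrl mice.

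Total estimated counts ran from 38751162 to 47335226 in Ctrl and from 41807000 to 49527614 in SCNx, and were 17425176 and 18059213 in KO. The summed level of 10 markers of ChP epithelium, Ttr among them, was 141200 to 169740 CPM in Ctrl, 113990 to 162830 CPM in SCNx, and 86650 and 82337 CPM in KO. Ctrl CT4 and SCNx CT32 stood apart: 10 markers of neurons and cerebellum summed to 360 and 535 CPM in them, against 9.95 to 57.7 CPM in the other 11 Ctrl libraries and 9.20 to 76.3 CPM in the other 11 SCNx libraries. The KO libraries held 284 and 380 CPM of these markers. Ctrl CT16 and SCNx CT0 held 1481 and 9606 CPM of 5 hepatocyte markers, which were at 0.0642 to 24.0 CPM in the other 22 libraries of both groups. Arntl was at 10.6 and 9.36 CPM in KO, inside the 2.11 to 40.3 CPM of the 12 Ctrl libraries, and a total over the gene does not separate the deleted exon from the rest.

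Potassium channels set the resting voltage of a cell and let potassium leave or enter it along its gradient. In ChP epithelium they face the cerebrospinal fluid as well as the blood, recycle the potassium that the sodium pump and cotransporters bring in, and take part in clearing potassium from the fluid. The large classes are the inwardly rectifying channels (Kcnj), the leak channels with paired pore domains (Kcnk), the voltage-gated channels (among them Kcna, Kcnd, Kcng, Kcnh, Kcnq and Kcnv), the channels opened by calcium or sodium (Kcnma, Kcnn and Kcnt), and the auxiliary subunits that change their trafficking and gating (Kcnab, Kcne and Kcnip). The 36 members held 5 inward rectifiers, 5 leak channels, 14 voltage-gated subunits, 5 channels opened by calcium or sodium and 6 auxiliary subunits. The last member, Kcnq1ot1, is no channel but a long non-coding RNA read from the opposite strand of Kcnq1, and with the strand setting of the counting not given in the sources used here, reads of the pair cannot be told apart.

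A member was kept apart when its level in Ctrl CT4 or SCNx CT32 was over 3 times the median of the other 11 libraries of its group. By this rule 15 of the 36 members were kept apart, against 6.21% of all 13697 genes. Among them were the voltage-gated Kcna2, Kcnc1, Kcnd2, Kcnd3 and Kcnq3, the inward rectifiers Kcnj2 and Kcnj10, the leak channel Kcnk2, the calcium- or sodium-opened Kcnma1, Kcnn3, Kcnt1 and Kcnt2, and the auxiliary subunit Kcnip2. In SCNx, CT32 was the highest library for all 15, and in Ctrl, CT4 was the highest for 12 of them. Among the 21 members not kept apart, CT32 was the highest SCNx library for 6 and CT4 the highest Ctrl library for 6. The rule picks genes by their values in Ctrl CT4 and SCNx CT32, so these counts are largely fixed by it. When both libraries were left out, 6 members fell under 1 CPM in at least 1 group, Kcnk2, Kcnd2, Kcnq3, Kcnip2 and Kcnn3 among them.

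**Figure D1:**
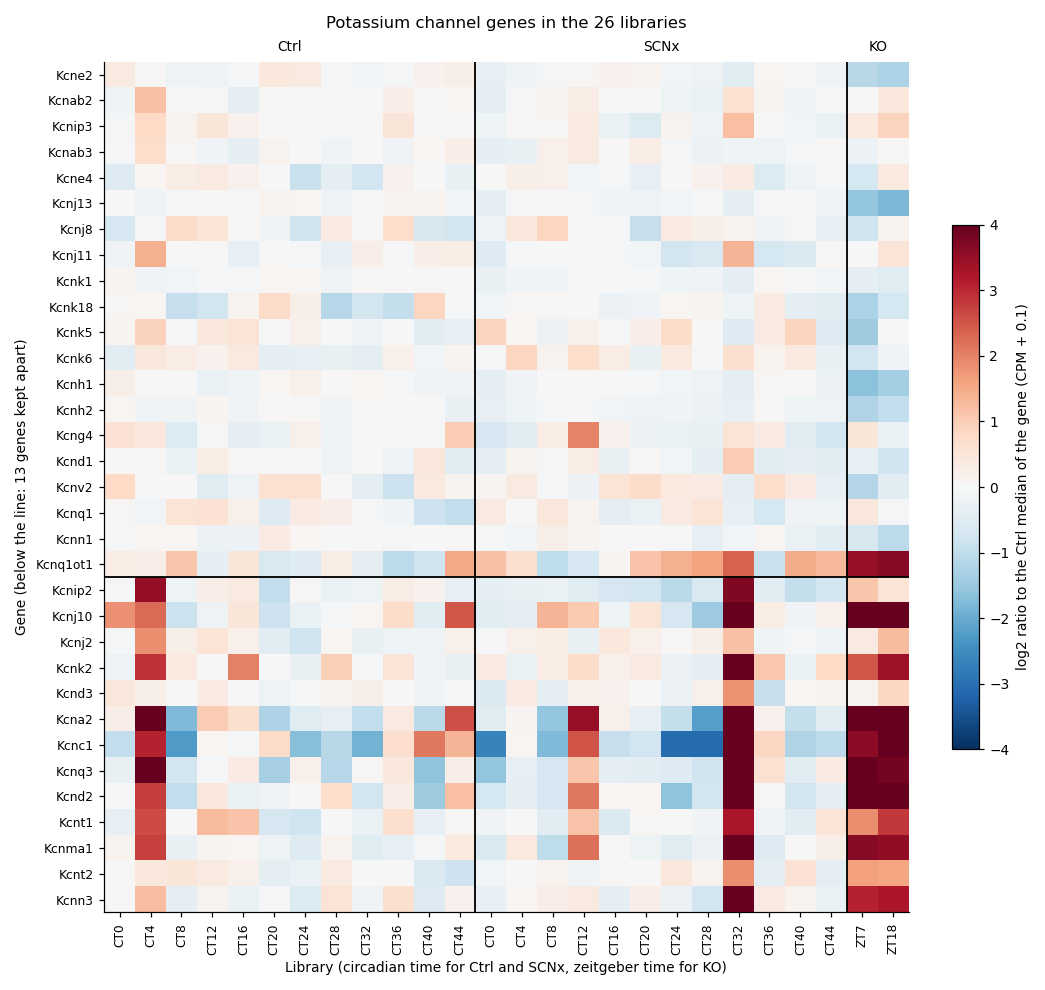
Each row is 1 gene and each column 1 library, coloured by the log2 ratio of its level to the Ctrl median of that gene after adding 0.1 CPM, with colours capped at 4 on either side. 33 of the 36 members are drawn. The 13 genes under the horizontal line were picked for high values in Ctrl CT4 or SCNx CT32. They are mostly dark there and in the KO libraries, while most of the 20 genes above the line are pale in Ctrl and SCNx.

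A handful of members made up most of the potassium channel RNA of the tissue. Compared per length (mean CPM in Ctrl divided by the kilobases of the longest coding transcript in the GENCODE M21 annotation), Kcnj13 came first at 661 CPM per kb and Kcne2 second at 552, and with Kcnk1 at 120 they stood far above Kcnh2 at 28.0 and Kcnh1 at 27.7. Kcnab2 followed at 5.53 CPM per kb, and the other 30 members were at 2.83 or lower. Of the sum over the members, 46.5% was Kcnj13, 38.9% Kcne2 and 8.48% Kcnk1. The order of the first 6 was the same with the median transcript length, and Kcnh2 and Kcnh1 differed by less than the choice of transcript can move them. Levels of different genes are compared only here, and all values below are CPM without a length term.

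Kcnj13 encodes Kir7.1, an inward rectifier of the apical membrane of ChP epithelium. Its exons overlap Gigyf2, and those of Kcnk1 an antisense gene, on the opposite strand, so that reads there cannot be told apart without strand. The Kcnj13 level was lowest at CT28 with 722 CPM, had a median of 836 CPM and was highest at CT40 with 924 CPM in Ctrl, and ran from 633 CPM at CT32 over 778 to 835 CPM at CT40 in SCNx. The groups overlapped widely and neither showed a wave over the day (amplitude of 0.066 on the log2 scale in Ctrl, adjusted p = 0.643). Kcne2, an auxiliary subunit that assembles with Kcnq1 and with Kcna channels in this epithelium, ran from 755 to 1170 CPM in Ctrl and from 650 to 992 CPM in SCNx. Its partner Kcnq1 was just above the limit, with a mean of 1.13 ± 0.391 CPM in Ctrl, where errors are SD over the 12 mice, and of 1.14 ± 0.326 CPM in SCNx. Kcnk1, the leak channel TWIK1, was at 269 ± 17.3 CPM in Ctrl and 249.6 ± 21.4 CPM in SCNx. The ether-a-go-go channel Kcnh1 was at 200.3 ± 20.9 and 186 ± 19.0 CPM, and the related Kcnh2 (ERG1) at 118 ± 9.78 and 109 ± 7.98 CPM. Over the 24 libraries of both groups, Spearman's rho with the summed epithelial markers was 0.89 for Kcnk1, 0.76 for Kcnh2, 0.71 for Kcnj13, 0.63 for Kcne2 and 0.56 for Kcnh1. These are descriptions, since all points share the library total and the mix of cells. In bulk tissue fewer cells of a type and less RNA per cell cannot be told apart.

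Time of day was examined by fitting a 24 h cosine and sine per group to the counts of all genes in 1 edgeR model and testing both terms together. Amplitudes are given in log2 units as the height of the fitted peak above the mean. The standard error beside an amplitude comes from a separate least-squares fit to log2 CPM. That fit used 1 spread for both groups, so the error of a gene is the same in Ctrl and SCNx and does not show which group varied more. Each adjusted p comes from the quasi-likelihood F test of edgeR, corrected by Benjamini and Hochberg's method over all 13697 genes. In Ctrl, 4 of the 36 members passed an adjusted p of 0.05, against 10.7% of all genes, so that the share of members called was near the background. At an unadjusted p under 0.05 they were 7 of 36, against 24.8% of all genes. The 4 were Kcne2, the leak channel Kcnk18, the silent voltage-gated subunit Kcnv2 and the inward rectifier Kcnj8, and none of them was kept apart. The first 3 of these peaked late in the subjective night and Kcnj8 late in the subjective day. The median fitted amplitude was 0.38 over the members and 0.11 over all genes tested, and within the members it was 0.69 over those kept apart and 0.23 over the others. In SCNx, where no member was called, the medians were 0.39 over the members and 0.091 over all genes. A fitted amplitude is never negative and grows with noise, and 21 of the 36 members were under 5 CPM in Ctrl. The part of noise in these medians was not tested.

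Kcne2 had the smallest p of the members. Its 12 Ctrl values were 1129, 901, 755, 763, 849 and 1170 CPM from CT0 to CT20 and 1124, 842, 815, 836, 978 and 1038 CPM from CT24 to CT44. Both cycles were low from CT8 to CT12 (CT32 to CT36 in the second) and high around CT20 to CT24, with the fitted peak at 22.1 h. The amplitude was 0.28 ± 0.052 (adjusted p = 0.00324), a fitted fold of 1.48 from trough to peak. In SCNx the values from CT0 were 704, 780, 846, 907, 992 and 969 CPM in the first cycle and 819, 754, 650, 916, 887 and 758 CPM in the second. There the level was highest at CT16 and lowest at CT32, and the fitted wave had an amplitude of 0.17 ± 0.052 with a peak at 16.5 h, which did not pass (adjusted p = 0.192). The test of the difference between the 2 waves gave an adjusted p of 0.0536. Without the brain-rich libraries Ctrl CT4 and SCNx CT32 the same test gave 0.00541. Without Ctrl CT16 and SCNx CT0, the libraries rich in liver markers, it gave 0.138. The summed epithelial markers also moved with the clock in Ctrl, with means of the 2 mice per clock time between 144950 CPM at CT4 and CT28 and 166140 CPM at CT0 and CT24, while the same means of Kcne2 ran from 785 to 1126 CPM. Over the 24 libraries Kcne2 had a rho of -0.73 with the summed mural cell markers. The part of the cell mix in the wave was not tested.

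Kcnk18 encodes TRESK, a leak channel that the calcium-dependent phosphatase calcineurin activates, best known from sensory neurons. In Ctrl it stood at 7.88, 8.02, 3.97, 4.48, 8.53 and 13.2 CPM from CT0 to CT20 and at 8.98, 3.42, 4.61, 3.89, 13.9 and 7.47 CPM from CT24 to CT44. The highest value of each cycle fell at CT20 and CT40, and the lowest at CT8 and CT28. The amplitude was 0.73 ± 0.15 with a peak at 20.0 h (adjusted p = 0.00573), a fitted 2.76-fold range. In SCNx all 12 values lay between 5.61 and 9.94 CPM, with an amplitude of 0.16 ± 0.15 (adjusted p = 0.752). The group means were nearly equal, 7.36 ± 3.52 CPM in Ctrl against 7.39 ± 1.18 CPM after the lesion (SD, 12 mice each), while the SD of Ctrl was the larger one. The difference of the waves had an adjusted p of 0.0530 in all 24 libraries, 0.00940 without the brain-rich pair and 0.0905 without Ctrl CT16 and SCNx CT0, the libraries rich in liver markers. Across the 12 Ctrl libraries Kcnk18 and Kcne2 had a rho of 0.71, and across the 12 SCNx libraries -0.021, both as descriptions. Its rho with the 10 marker lists lay between -0.42 and 0.33 over the 24 libraries.

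Kcnv2 encodes a subunit that forms no channel alone, known from photoreceptors. In Ctrl it ran from 0.593 CPM at CT36 over a median of 1.17 to 2.11 CPM at CT0, and its further high values were 1.84 CPM at CT24 and 1.83 CPM at CT20. Its amplitude was 0.60 ± 0.16 with a peak at 22.8 h (adjusted p = 0.0475), and leaving out the liver-rich pair moved this to 0.0591. A library held a median of 54.5 counts of Kcnv2, so each value was coarse. SCNx values lay between 0.875 and 2.02 CPM, with no call (amplitude of 0.21 ± 0.16, adjusted p = 0.689), and the difference of the waves did not pass (adjusted p = 0.441).

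Kcnj8 encodes Kir6.1, the pore of the ATP-sensitive channel of pericytes and smooth muscle, which pairs with the sulfonylurea receptor Abcc9. Its Ctrl values were 2.43, 3.80, 6.60, 5.82, 4.14 and 3.56 CPM from CT0 to CT20 and 2.24, 5.03, 4.14, 6.57, 2.51 and 2.34 CPM from CT24 to CT44. Both cycles began low and were high at CT8 or CT36, with an amplitude of 0.66 ± 0.14 and a fitted peak at 9.59 h (adjusted p = 0.0106). In SCNx the values ran from 2.04 CPM at CT20 to 7.31 CPM at CT8, and the amplitude of 0.42 ± 0.14 with a peak at 6.49 h did not pass (adjusted p = 0.245). The difference of the waves did not pass either (adjusted p = 0.377), so a loss of the wave after the lesion was not shown. Kcnj8 moved with mural cell markers: its rho with the sum of 6 of them was 0.79 over 24 libraries, and with Abcc9 it was 0.75 in Ctrl and 0.76 in SCNx. That sum ran from 159 to 392 CPM in Ctrl and from 173 to 371 CPM in SCNx, with Ctrl means per clock time from 175 CPM at CT0 and CT24 to 321 CPM at CT4 and CT28, and all 6 markers were found in the table. Abcc9 itself had an amplitude of 0.34 ± 0.14 with a peak at 10.6 h and no call (adjusted p = 0.235). The part of the mural cell content in the Kcnj8 wave was not tested.

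**Figure D2:**
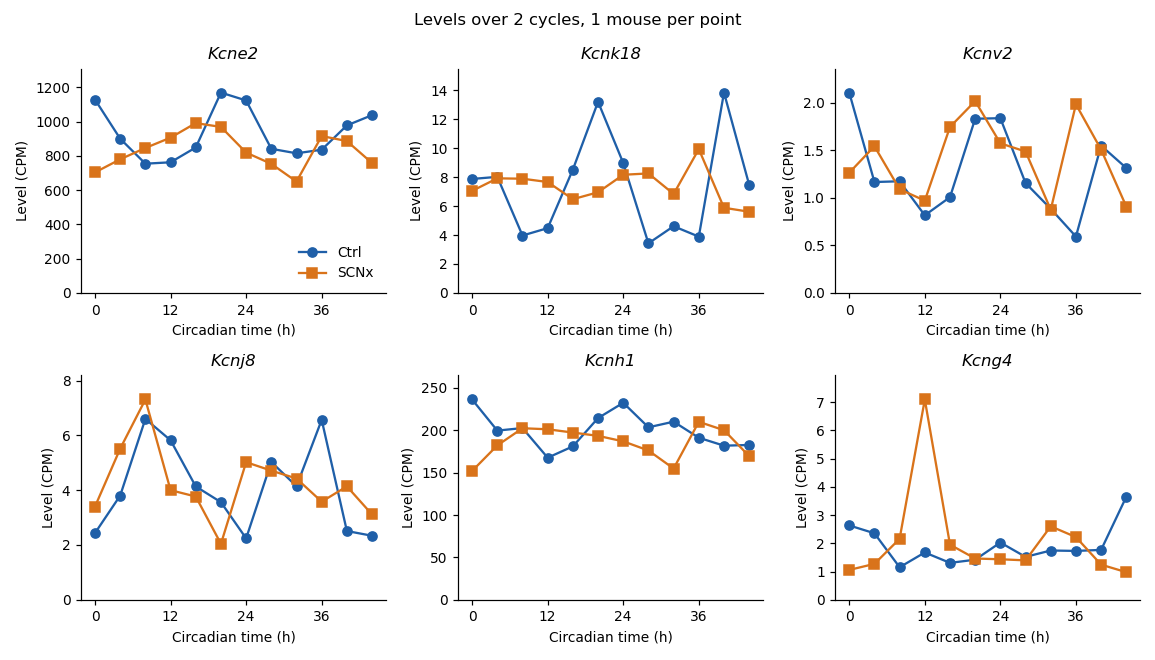
Each panel gives the level of 1 gene in CPM against circadian time in hours, with 1 mouse per point and axes from 0. In Ctrl (circles), Kcnk18 was high at CT20 and CT40 with 13.2 and 13.9 CPM while all SCNx values (squares) stayed between 5.61 and 9.94 CPM, and the Kcng4 panel shows the single SCNx value of 7.10 CPM at CT12.

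Promoters of the rhythmic members are shown so that the searched clock motifs can be read against them. The sequences are the RefSeq entries of build GRCm38.p6, 5′ to 3′ on the strand of the gene, from 250 bases before to 50 bases after a transcription start, and capitals mark a match to any searched motif. Kcnv2 had no entry. Kcne2 has 2 starts, at chr16:92292139-92292438 on the plus strand (start A) and at chr16:92295366-92295665 on the plus strand (start B), Kcnk18 lies at chr19:59219398-59219697 on the plus strand and Kcnj8 at chr6:142571565-142571864 on the minus strand.
Kcne2 start A: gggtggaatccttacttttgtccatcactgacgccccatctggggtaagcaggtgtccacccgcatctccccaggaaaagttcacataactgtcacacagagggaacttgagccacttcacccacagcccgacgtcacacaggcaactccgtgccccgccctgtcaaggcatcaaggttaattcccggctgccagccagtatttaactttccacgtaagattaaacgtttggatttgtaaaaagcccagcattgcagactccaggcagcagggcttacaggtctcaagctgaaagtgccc
Kcne2 start B: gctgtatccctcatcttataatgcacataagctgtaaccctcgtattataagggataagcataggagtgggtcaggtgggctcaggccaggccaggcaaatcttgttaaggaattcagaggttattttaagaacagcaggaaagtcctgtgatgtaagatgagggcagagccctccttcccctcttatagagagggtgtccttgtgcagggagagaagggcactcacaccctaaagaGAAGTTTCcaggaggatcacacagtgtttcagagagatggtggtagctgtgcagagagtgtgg
Kcnk18: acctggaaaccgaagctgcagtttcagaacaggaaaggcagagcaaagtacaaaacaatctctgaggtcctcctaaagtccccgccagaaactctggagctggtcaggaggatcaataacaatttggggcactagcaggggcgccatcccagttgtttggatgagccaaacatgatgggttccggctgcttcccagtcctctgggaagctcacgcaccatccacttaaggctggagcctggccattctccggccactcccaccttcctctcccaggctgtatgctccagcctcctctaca
Kcnj8: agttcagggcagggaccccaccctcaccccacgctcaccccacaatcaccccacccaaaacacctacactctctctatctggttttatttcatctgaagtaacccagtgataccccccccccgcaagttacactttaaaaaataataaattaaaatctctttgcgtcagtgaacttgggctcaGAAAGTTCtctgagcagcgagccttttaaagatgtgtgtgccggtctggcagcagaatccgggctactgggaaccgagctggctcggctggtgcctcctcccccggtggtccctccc
The motifs searched on both strands were the E-box CACGTG, the RORE core TAGGTCA, the D-box TTATGNAA, the palindromic glucocorticoid response element and the heat shock element GAANNTTC, where N is any base. The only match in these 4 windows was the heat shock element, 13 bases before start B of Kcne2 and 67 bases before the start of Kcnj8, and 7.86% of all 32851 promoter windows in the table hold it. Of the 36 members, 25 matched the table, with 34 windows. E-boxes stood in 3 of the 34 (Kcne4, Kcnj2 and Kcnk5), against 7.15% of all windows, and no member window held an RORE core or a D-box, which 2.61% and 3.38% of all windows hold. A match is a description of the letters alone.

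In SCNx no member passed the test for a 24 h wave with edgeR, and 0% of all 13697 genes did. At an unadjusted p under 0.05 there were 15 of 36 members, against 14.8% of all genes. With limma-trend on log2 CPM no member was called, and 0% of all genes were. It gave 5 members at an unadjusted p under 0.05, with no share over all genes computed. DESeq2 called 8 members, against 3.15% of all genes. Of the 15 members, 11 were among those kept apart and 4 among the 21 others. The smallest p values belonged to Kcng4, Kcnn3 and Kcnj10.

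Kcnj10 encodes Kir4.1, the main inward rectifier of astrocytes and other glia. Its SCNx level was 302.3 CPM at CT32 and 1.99 to 14.5 CPM in the other 11 libraries. In Ctrl its highest value was 32.0 CPM at CT44, where CT4 stood at 27.1 CPM, and the median was 5.58 CPM. Its SCNx amplitude of 2.09 ± 0.61 (adjusted p = 0.151) became 0.60 without SCNx CT32, so most of the fitted SCNx wave rested on that library. Kcnn3, a small-conductance channel opened by calcium, was at 21.7 CPM at SCNx CT32 and at 0.549 to 1.33 CPM in the other 11 SCNx libraries. The 5 astrocyte markers summed to 1008 CPM in SCNx CT32, against a SCNx median of 51.0 CPM, and the list's Gfap, Aqp4, Slc1a3, Slc1a2 and Aldoc were all found in the table.

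Voltage-gated subunits of neurons were also among the members kept apart, which the rule picked for high values in the brain-rich libraries. Kcnq3, a slow non-inactivating channel subunit, was at 15.3 CPM in Ctrl CT4 and 30.5 CPM in SCNx CT32, against medians of 0.529 and 0.383 CPM in the other 11 libraries of each group, none of which passed 1.28 CPM. Kcnd2, a transient A-type channel, was at 4.87 and 18.6 CPM, against medians of 0.627 and 0.454 CPM. Kcna2, an axonal delayed rectifier, was at 24.4 and 29.1 CPM, and reached 15.7 CPM in SCNx CT12 and 8.30 CPM in Ctrl CT44, where the neuronal markers summed to 76.3 and 57.7 CPM. Over the 24 libraries the rho with the summed neuronal markers was 0.92 for Kcna2, 0.83 for Kcnc1 and Kcnq3 and 0.81 for Kcnd2. Ctrl CT4 and SCNx CT32, by which these genes were picked, also held the highest neuronal marker sums of Ctrl and SCNx. Both libraries enter the rho, so part of it is fixed by the rule, and no rho without them was computed. Not all members kept apart followed these markers so closely. The rho was 0.40 for Kcnd3, 0.13 for Kcnj2 and -0.085 for Kcnt2, and Kcnt2 had a rho of 0.81 with the mural cell markers. Kcnj13 and Kcnk18 had a rho of -0.16 and -0.035 with the neuronal markers.

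**Figure D3:**
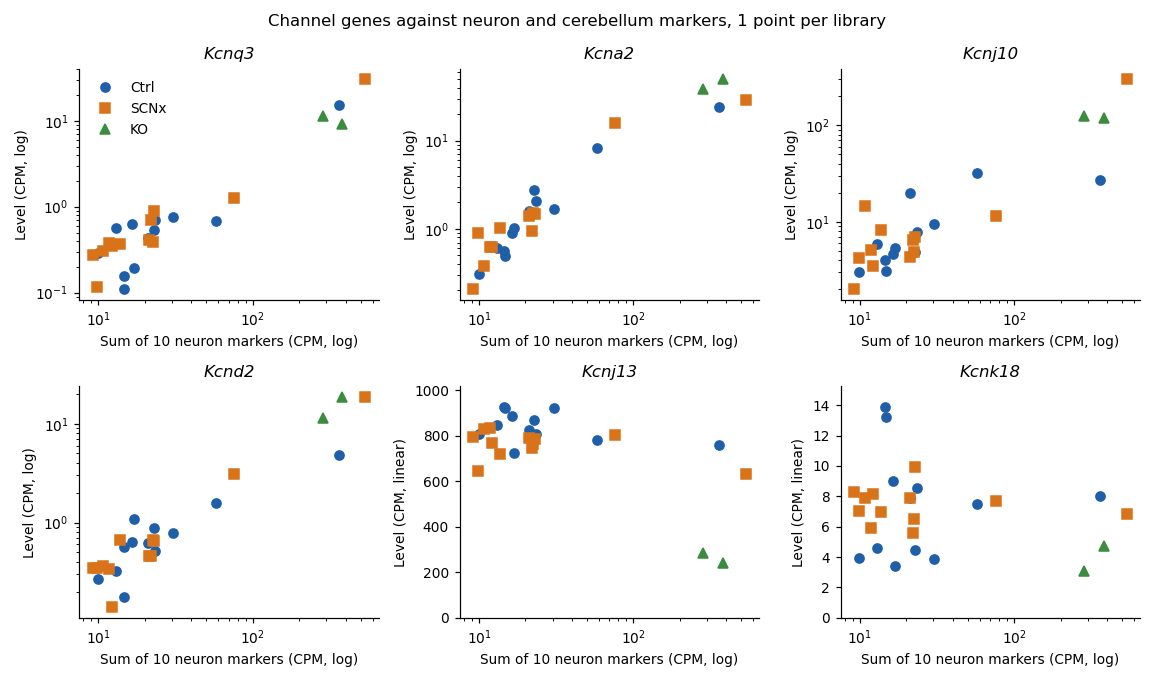
Each point is 1 library, with the sum of 10 neuron and cerebellum markers in CPM on a log axis against the level of 1 gene in CPM, on a log axis for Kcnq3, Kcna2, Kcnj10 and Kcnd2 and a linear axis from 0 for Kcnj13 and Kcnk18. Kcna2 was higher with more marker signal over the whole range, Kcnq3, Kcnd2 and Kcnj10 reached their highest levels where the markers were highest or in KO, and Kcnj13 and Kcnk18 were not higher in libraries of high marker signal. Kcnq3, Kcna2, Kcnj10 and Kcnd2 were picked for high values in Ctrl CT4 or SCNx CT32.

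The difference between the 24 h waves of SCNx and Ctrl passed for 1 member, Kcng4, against 2.12% of all genes. Kcng4 encodes Kv6.4, a subunit that forms no channel alone and modulates others. Its Ctrl values ran from 1.15 CPM at CT8 over a median of 1.74 to 3.65 CPM at CT44, and its SCNx values from 0.977 CPM at CT44 over 1.45 to 7.10 CPM at CT12, with 2.60 CPM at CT32 as the next highest. A single SCNx mouse thus stood above all others. The fitted amplitudes were 0.37 ± 0.20 with a peak at 22.7 h in Ctrl and 0.85 ± 0.20 with a peak at 11.2 h in SCNx (adjusted p of the difference 0.0497). Without SCNx CT12 the SCNx amplitude was 0.50 and the adjusted p 0.105. That library held 76.3 CPM of the neuronal markers, the highest after SCNx CT32 among SCNx libraries, and the rho of Kcng4 with these markers was 0.57 over 24 libraries, so their part in the call was not tested. Next in order stood Kcnk18 and Kcne2, given above, and then Kcnh1 (adjusted p = 0.0995). Kcnh1 peaked at 1.95 h in Ctrl with an amplitude of 0.18 ± 0.054 (adjusted p = 0.0732) and at 14.6 h in SCNx with 0.11 ± 0.054. Its Ctrl values were highest at CT0 with 236 CPM and at CT24 with 232 CPM and lowest at CT12 with 168 CPM, and its SCNx values were lowest at CT0, the liver-rich library, with 152 CPM. Without the brain-rich pair 4 of the 30 members still tested passed (Kcne2, Kcng4, Kcnh1 and Kcnk18), against 3.74% of the genes tested there, and without the liver-rich pair none did.

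Mean levels were compared between SCNx and Ctrl without regard to time. No member passed with edgeR, and 0% of all genes did. DESeq2 and limma-trend called none of the members, against 0.0511% and 0% of all genes. At an unadjusted p under 0.05 edgeR gave 5 of 36 members, 3 lower and 2 higher in SCNx, against 9.37% of all genes. DESeq2 gave 6 and limma-trend 3, with no share over all genes computed for either. The 3 lower ones with edgeR were epithelial channels of high level. Kcnj13 differed by -0.14 ± 0.047 on the log2 scale (means of 759 and 839 CPM, p = 0.00648, adjusted p = 0.411), Kcnh2 by -0.12 ± 0.042 (adjusted p = 0.440) and Kcnk1 by -0.11 ± 0.047 (adjusted p = 0.495). The summed epithelial markers had a median of 159170 CPM in Ctrl and 151100 CPM in SCNx, and their part in these values was not tested. Without the brain-rich pair the 3 differences were -0.13, -0.11 and -0.089. The 95% intervals of these 3 genes reached no lower than -0.24.

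The higher members were Kcnn3, which was 1.19 ± 0.54 higher on the log2 scale and fell under the limit on level without the brain-rich pair, and Kcnq1ot1 (0.80 ± 0.36, both adjusted p = 0.495 in edgeR's quasi-likelihood test). Kcnq1ot1, which silences neighbouring genes on the paternal chromosome, ran from 12.7 CPM over a median of 26.3 to 75.1 CPM in Ctrl and from 13.1 over 58.5 to 135 CPM in SCNx. The groups overlapped over nearly the whole range, the difference was 0.61 without the brain-rich pair, and the rho with the epithelial markers was -0.74 over 24 libraries. Kcnq1 itself differed by 0.020 ± 0.20. Over all 36 members the median difference was 0.10, against 0.011 over all genes, with 23 above and 13 below 0. Among the 15 kept apart the median was 0.35 and 13 were above 0, and among the 21 others it was -0.021 with 10 above 0. Without Ctrl CT4 and SCNx CT32, 9 of the 15 were still tested and their median was 0.076, with 5 above 0.

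**Figure D4:**
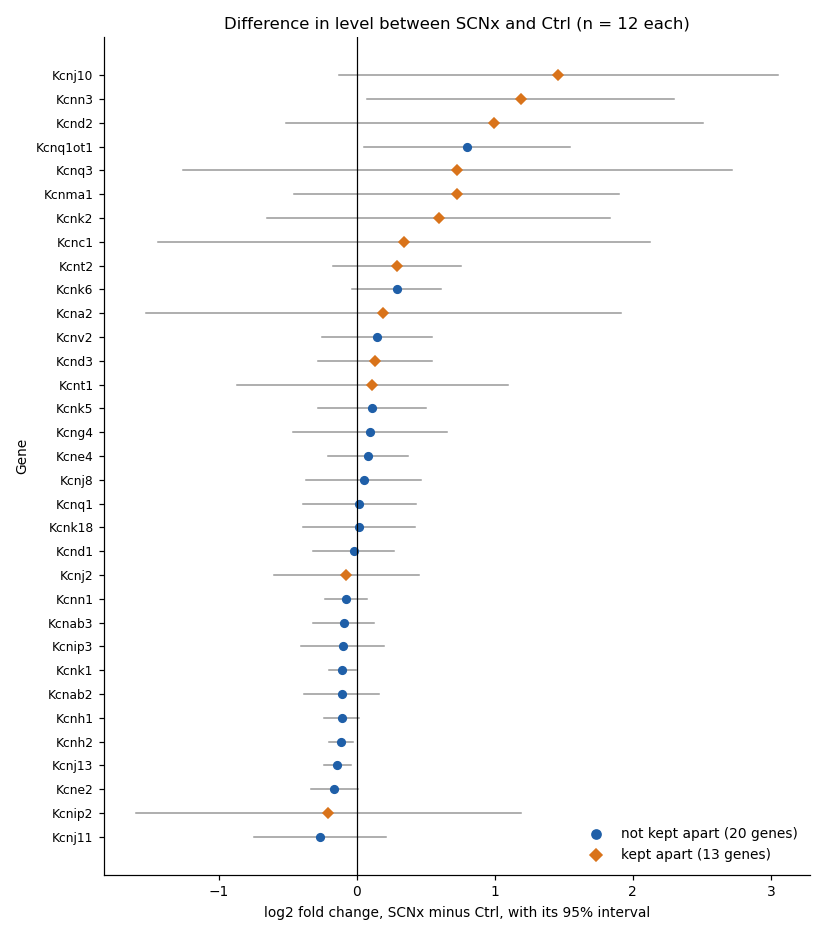
The log2 fold change of SCNx against Ctrl is drawn for 33 of the 36 genes with its 95% interval, from 12 mice per group. Diamonds (13 genes kept apart) mostly have wide intervals and lie mostly to the right of 0. Most circles (20 other genes) lie closer to 0 with narrower intervals, but Kcnq1ot1 lies at 0.80 with an interval from 0.050 to 1.55.

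By class, the lowest and highest differences were -0.27 (Kcnj11) and 1.46 (Kcnj10) among 5 inward rectifiers, -0.11 (Kcnk1) and 0.59 (Kcnk2) among 5 leak channels, and -0.12 (Kcnh2) and 0.997 (Kcnd2) among 14 voltage-gated subunits. The difference of Kcnj10 turned to -0.73 without SCNx CT32 and to -0.50 without the brain-rich pair, and Kcnk2 and Kcnd2 fell under the limit on level without that pair. Among 5 channels opened by calcium or sodium they were -0.081 (Kcnn1) and 1.19 (Kcnn3), and among 6 auxiliary subunits -0.21 (Kcnip2) and 0.082 (Kcne4). Kcnj11, the Kir6.2 pore of the ATP-sensitive channel of neurons and beta cells, was at 2.05 ± 0.945 CPM in Ctrl and 1.72 ± 1.01 CPM in SCNx, and its receptor Abcc8 was under the limit with 0.311 and 0.895 CPM. Members of moderate level that were neither called nor kept apart included the beta subunit Kcnab2 at 21.7 ± 7.46 and 20.2 ± 4.03 CPM, the calcium sensor Kcnip3 at 7.73 ± 1.71 and 7.25 ± 2.85 CPM, and the small-conductance channel Kcnn1 at 5.58 ± 0.588 and 5.28 ± 0.713 CPM. Kcnab3, Kcnk5, Kcnk6, Kcnd1, Kcne4 and Kcnq1 had means between 1.05 and 5.22 CPM in Ctrl. Kcne4, a subunit that inhibits Kcnq1 and Kv1 channels, peaked at 12.4 h in Ctrl without passing (adjusted p = 0.138), and passed without the brain-rich pair (adjusted p = 0.0439).

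The genes that work beside these channels were read from a list of 36 subunits, receptors, pumps, cotransporters and kinases, of which 30 were tested. In Ctrl 6 of the 30 passed for a 24 h wave, in SCNx none (8 at an unadjusted p under 0.05), for the difference 1 and for the level none (4 at an unadjusted p under 0.05). Of all genes, 10.7% passed in Ctrl and 2.12% for the difference, while an unadjusted p under 0.05 was reached by 14.8% in SCNx and 9.37% for the level. The 6 were Lrrc52, a subunit of large-conductance channels (amplitude of 0.82 ± 0.13, peak at 20.8 h), Wnk4, a kinase that regulates cotransporters (0.35 ± 0.086, 13.1 h), Amigo1, a channel partner (0.22 ± 0.061, 21.6 h), the intracellular channels Tmem38a (0.22 ± 0.054, 13.5 h) and Tmem175 (0.14 ± 0.031, 8.13 h), and the sodium pump subunit Atp1b2 (0.19 ± 0.033, 5.41 h). Atp1b2 was also the gene whose wave differed between the groups (adjusted p = 0.0326 in edgeR's test). The cotransporter Slc12a2, at 1365 CPM in Ctrl, had an amplitude of 0.18 ± 0.054 (adjusted p = 0.0694). The inositol transporter Slc5a3, which binds Kcne2 complexes in ChP, peaked at 0.0799 h with an amplitude of 0.27 ± 0.085 (adjusted p = 0.0897 in edgeR's test). Its rho with Kcne2 was 0.62 in Ctrl and -0.15 in SCNx.

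The KO libraries had 1 mouse per time, so their values stand beside Ctrl without a test, and their intervals are exact Poisson 95% intervals that cover counting error only. For 8 of the 36 members both KO values lay above the highest of the 12 Ctrl libraries, as for 16.9% of all 13697 genes, and for 6 both lay below the lowest, as for 40.4% of all genes. A further 10 had both inside the Ctrl range and 12 had a single value outside it or values on both sides. The 6 below were the epithelial Kcnj13, Kcne2, Kcnh1, Kcnh2 and Kcnk1, and Kcnn1. Kcnj13 was at 286 CPM (278 to 294) at ZT7 and 240.1 CPM (233 to 247) at ZT18, a mean of 0.315 times the Ctrl median. Kcnh1 was at 65.1 and 78.8 CPM (0.358 times) and Kcne2 at 406 and 362 CPM (0.439 times). The summed epithelial markers were lower in KO too, as given above, and the median ratio of KO to Ctrl over all genes was 0.847.

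Of the 8 above, 7 were kept apart in the other groups (Kcna2, Kcnc1, Kcnd2, Kcnj10, Kcnma1, Kcnn3 and Kcnt2). Kcna2 was at 38.97 CPM (36.1 to 42.0) and 49.9 CPM (46.7 to 53.3), 34.1 times the Ctrl median, Kcnd2 at 11.4 and 18.7 CPM (23.9 times) and Kcnj10 at 126 and 120 CPM (21.95 times). The median ratio was 9.75 over the 15 kept apart and 0.753 over the 21 others. Neuronal markers in KO summed to 284 and 380 CPM and astrocyte markers to 784 and 929 CPM, against 360 and 703 CPM in Ctrl CT4. Oligodendrocyte markers summed to 307 and 446 CPM in KO, against 148 CPM in Ctrl CT4. In Ctrl CT4, Kcna2 was at 24.4, Kcnd2 at 4.87 and Kcnj10 at 27.1 CPM, all lower than in KO. The part of these cell types in the KO values was not tested. The eighth was Kcnq1ot1, at 294 CPM (286 to 302) and 327 CPM (318 to 335), against a highest Ctrl value of 75.1 CPM. It is a non-coding RNA, and KO had a total RNA kit where Ctrl had an mRNA kit. The part of the kit in its KO values was not tested. Kcnk18 was at 3.099 CPM (2.33 to 4.04) at ZT7 and 4.71 CPM (3.76 to 5.82) at ZT18, the first under the Ctrl minimum of 3.42 CPM, and its intervals overlapped. Kcnj8 was at 2.24 and 4.43 CPM and Kcnv2 at 0.459 and 0.831 CPM. Each pair shows 1 mouse by day and 1 by night, so no rhythm can be read from it.

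**Figure D5:**
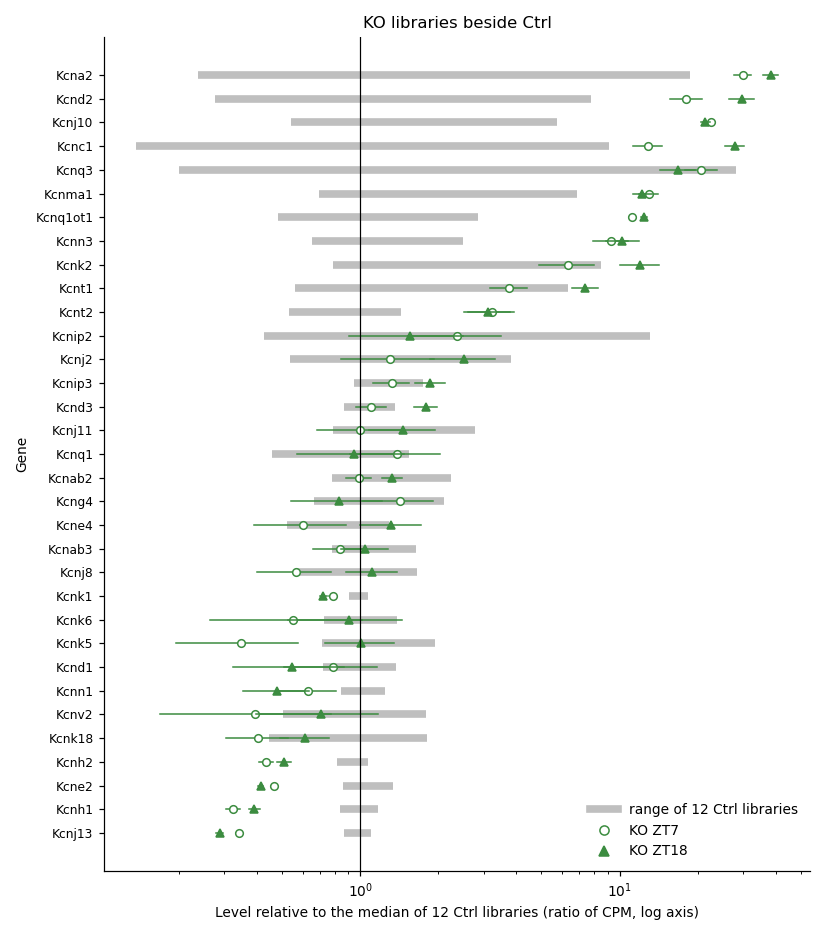
For each of 33 genes the grey bar spans the 12 Ctrl libraries and the symbols give the KO libraries at ZT7 and ZT18 with exact Poisson 95% intervals, all as ratios to the Ctrl median on a log axis. Kcnj13, Kcnh1 and Kcne2 lie left of their bars at 0.315, 0.358 and 0.439, and Kcna2, Kcnd2 and Kcnj10 right of theirs at 34.1, 23.9 and 21.95.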

How the data were processed

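RNA from ChP was measured by RNA-seq in 12 Ctrl, 12 SCNx and 2 KO mice. The authors processed the reads with the nf-core/rnaseq pipeline against GRCm39 and deposited the estimated counts per gene that Salmon gave, 1 table for Ctrl and SCNx and 1 for KO, not normalized. Their processing notes also name STAR, SAMtools 1.16.1, Salmon 1.9.0, cutadapt 3.4 and StringTie 2.2.1. Replicates were not pooled and each library was 1 mouse. Whether counting used strand was not given in the sources used here.

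Counts were rounded and scaled to CPM of the library total. Genes with a mean of at least 1 CPM in Ctrl and in SCNx were tested with edgeR 4.0.16 (TMM, quasi-likelihood F test, Benjamini-Hochberg over all genes, threshold 0.05) in R 4.3.3. The rhythm model held a group mean and a 24 h cosine and sine per group, and the level model held the group alone. The rhythm callers of the study were not run. Scripts were tested on simulated counts. The KO libraries entered no fit. DESeq2 1.42.0, limma 3.58.1 (limma-trend), other filters, a linear trend, circadian time as a block and left-out libraries were tried as alternatives.

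Named genes were those called in any test, the 6 of highest mean in Ctrl, the 3 smallest p of each test, Kcne2, Kcnj8 and Kcnk18, the 3 kept-apart genes highest in SCNx CT32, and the 3 largest KO ratios each way. Of the 36 members, 3 enter the counts but are not reported here by name. The members and lists were chosen with earlier results of these data known. Transcript lengths came from GENCODE M21 and promoters from RefSeq GRCm38.p6, used for lengths and letters only, since the counts are on GRCm39. In GENCODE M21, Kcnj13 shares exon sequence with Gigyf2 on the opposite strand, and Kcnk1, Kcnd3, Kcnab3, Kcnk2 and Kcnt2 with antisense genes.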

Additional observations from a re-analysis of the deposited data

Results flagged for a closer look

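Kcng4 was the only member whose 24 h wave passed the test of a difference between SCNx and Ctrl (adjusted p = 0.0497 in edgeR's quasi-likelihood test), with amplitudes of 0.37 in Ctrl and 0.85 in SCNx on the log2 scale. The value lies at the threshold, and the call was lost in 21 of 32 alternatives, among them the one without SCNx CT12, where the level of 7.10 CPM stood above all other libraries.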

How the results depend on the processing

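Of the 36 members, 7 passed for a 24 h wave in Ctrl without the brain-rich pair, where 30 members were tested, in place of 4, the added ones being Kcnc1, Kcne4 and Kcnh1. The share over all genes rose as well, from 10.7% to 16.5%. Leaving out 1 mouse gave 3 to 5, while 6.7% to 16.6% of all genes passed. Kcne2, Kcnk18 and Kcnj8 passed in every alternative in which they were tested, and Kcnv2 in 15 of 32. In SCNx, DESeq2 called 8 members (3.15% of all genes) and the fit with no filter on low counts 9 (3.44%), and each other alternative, the 24 left-out mice included, called 0. The difference of the waves was the least stable count. It was 4 with DESeq2 (4.3% of all genes), 2 with a minimum of 5 CPM (2.64%) and 3 with no filter (1.62%). With a linear trend it was 2 (2.49%), without the brain-rich pair 4 (3.74%) and without the liver-rich pair 0 (1.57%). Over the 24 left-out mice it ran from 0 to 4, with 0 in 14 of them. Among these it was 3 without Ctrl CT4 (2.4% of all genes) and 4 without SCNx CT32 (3.44%). Kcng4 kept its call in 6 of these 24, without Ctrl CT20 or SCNx CT8, CT24, CT32, CT36 or CT40, while Kcne2 and Kcnk18 each passed in 9 of 33 alternatives. The level count stayed at 0 in all 34. Ctrl and SCNx share circadian times but no replicate numbers in the labels. A level fit matched by circadian time as a block gave 0 calls, against 0% of all genes. It gave 2 members at an unadjusted p under 0.05, with no share over all genes computed. The number kept apart was 20 with over 2 times (10.4% of all genes), 12 with over 5 times (4.1%) and 11 with over 3 times in both libraries (2.88%). These stand in place of 15 (6.21%). Low counts limit Kcnv2 and Kcng4, with medians of 54.5 and 74 counts per library.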
